A study of Mus musculus with 12 samples.

Results

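The 10 genes described here encode REG lectins and other proteins that the lining of the gut secretes against microbes. They were chosen by name (Reg1, Reg3a, Reg3b, Reg3g, Reg4, Lyz1, Ang4, Mmp7, Itln1 and Retnlb), and all 10 were found among the 34348 genes of the deposited expression table. Total RNA of small intestine and liver from C57BL/6 mice was sequenced in 12 libraries, 3 in each of 4 groups. The groups were small intestine of LCWE mice, small intestine of PBS mice, liver of LCWE mice and liver of PBS mice. The labels give no dose, time, sex or age. LCWE is left unexplained in them. It commonly stands for Lactobacillus casei cell wall extract, injected into mice to model the vasculitis of Kawasaki disease, and PBS is phosphate-buffered saline. The treated groups appear as LCWECFA in the authors' deposited comparison table, and what CFA means is not explained. Replicates carry the numbers 1, 2 and 4 for LCWE and 2, 3 and 4 for PBS in both tissues. Whether they came from separate animals is not stated, and the p-values therefore rest on a spread between libraries that could be technical.

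REG proteins are small secreted C-type lectins. In the mouse small intestine, REG3-gamma and REG3-beta bind bacterial surface sugars and lipids and keep bacteria away from the epithelium, and their genes are induced by microbes through interleukin-22 and the transcription factor STAT3. Paneth cells at the base of the crypts release lysozyme, angiogenin-4, intelectin-1 and alpha defensins, and the metalloproteinase MMP7 cuts mouse alpha defensin precursors into their active forms. Goblet cells, mainly those of the colon, secrete the resistin-like protein encoded by Retnlb.

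Reg3b, Reg3a and Reg3g lie close together on chromosome 6 with Reg1. The windows around their transcription starts are shown because the levels of Reg3b and Reg3g followed each other across the intestinal libraries, whereas Reg3a did not follow them. Each window runs from 250 bases before to 50 bases after the start, on the gene's own strand, 5′ to 3′, from RefSeq on GRCm38.p6. These starts can lie inside the gene spans given below. The Reg3b window begins at 78370635, close to its span's first base (78370657), and the Reg1 window (from 78425733) lies inside its span (from 78422711). Windows were found for 9 of the 10 genes, 10 windows in all, as Mmp7 had a second start. Capitals mark matches to the searched motifs. One is TTCNNNGAA, a pattern bound by STAT proteins. The other is the TATA box pattern TATAAA, which appears in capitals as its reverse complement where it lies on the opposite strand. A STAT pattern with 4 instead of 3 free bases (N) was also searched on both strands.
Reg3b, chr6:78370635-78370934, plus strand: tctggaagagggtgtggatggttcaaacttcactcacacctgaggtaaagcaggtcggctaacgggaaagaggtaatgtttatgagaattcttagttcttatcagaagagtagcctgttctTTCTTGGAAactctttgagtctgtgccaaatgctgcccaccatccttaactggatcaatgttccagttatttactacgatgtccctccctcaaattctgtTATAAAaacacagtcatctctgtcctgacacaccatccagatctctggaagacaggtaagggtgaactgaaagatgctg
Reg3g, chr6:78468825-78469124, minus strand: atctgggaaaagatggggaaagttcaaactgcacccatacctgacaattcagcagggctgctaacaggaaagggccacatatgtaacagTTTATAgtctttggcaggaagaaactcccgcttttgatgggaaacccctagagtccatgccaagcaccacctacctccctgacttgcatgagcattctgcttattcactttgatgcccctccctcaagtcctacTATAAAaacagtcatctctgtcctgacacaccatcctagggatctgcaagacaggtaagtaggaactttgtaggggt
Reg3a, chr6:78380459-78380758, plus strand: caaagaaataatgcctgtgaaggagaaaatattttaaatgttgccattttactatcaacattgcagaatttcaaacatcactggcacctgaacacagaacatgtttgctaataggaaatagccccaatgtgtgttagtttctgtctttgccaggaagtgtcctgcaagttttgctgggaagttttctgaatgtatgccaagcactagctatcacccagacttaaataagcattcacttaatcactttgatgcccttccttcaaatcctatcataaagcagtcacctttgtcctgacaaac

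TTCNNNGAA reads the same on both strands. It matched once in the Reg3b window, as TTCTTGGAA at positions -129 to -121, and did not match in the Reg3g or Reg3a window. Of 32851 RefSeq promoter windows of this length, 8.3% held TTCNNNGAA, 6.95% held the pattern with 4 free bases and 13.6% held TATAAA on either strand. TATAAA lay at -29 to -24 in Reg3b and at -27 to -22 in Reg3g, and on the opposite strand at -161 to -156 in Reg3g. Among the other members' windows, Ang4 held TTCNNNGAA at -192 to -184, Reg1 held the pattern with 4 free bases at -244 to -235 and TATAAA at -30 to -25 and, on the opposite strand, at 35 to 40. Mmp7 held TATAAA at -123 to -118 and at -26 to -21 in its window from 7691840. Its other window, from 7692091, held none of the 3 patterns, nor did those of Itln1, Lyz1 and Reg4. The Reg3b and Reg3g windows were identical at 71.4% of 294 aligned bases, with a longest identical run of 29 bases. The same identity was 68.7% between Reg3b and Reg3a, 74.3% between Reg3g and Reg3a and 55.4% between Reg3b and Reg1. A match is a description of letters, not of a bound site.

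Between 30294594 and 40253006 reads per intestinal library and between 34741958 and 44921885 per liver library were assigned to genes. The 10 genes took 0.798%, 0.963% and 1.11% of these reads in LCWE intestines (replicates 1, 2 and 4), against 0.862%, 0.923% and 1.18% in PBS intestines (replicates 2, 3 and 4). They took 0.0022% to 0.00261% in LCWE livers and 0.00212% to 0.00228% in PBS livers. Levels below are RPKM, which divide reads by gene length and by library size, so they can be compared between genes. Values are in the order of replicates 1, 2 and 4 for LCWE and 2, 3 and 4 for PBS. In these bulk samples, fewer cells of a type and less RNA per cell cannot be told apart.

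In the small intestine, no antimicrobial gene passed the test for a difference between LCWE and PBS. 9 of the 10 passed the filter on low values and 0 of these 9 passed limma at a Benjamini-Hochberg adjusted p below 0.05, as did 0 of all 17510 genes tested (0%). limma's voom on the recovered reads also called 0. Without adjustment, Reg4 alone was below 0.05, against 12.6% of all genes. Of the 9, 5 were higher and 4 lower in LCWE, with a median log2 fold change of 0.02. Over all genes tested, 69% were higher in LCWE and the median was 0.11.

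**Figure D1:**
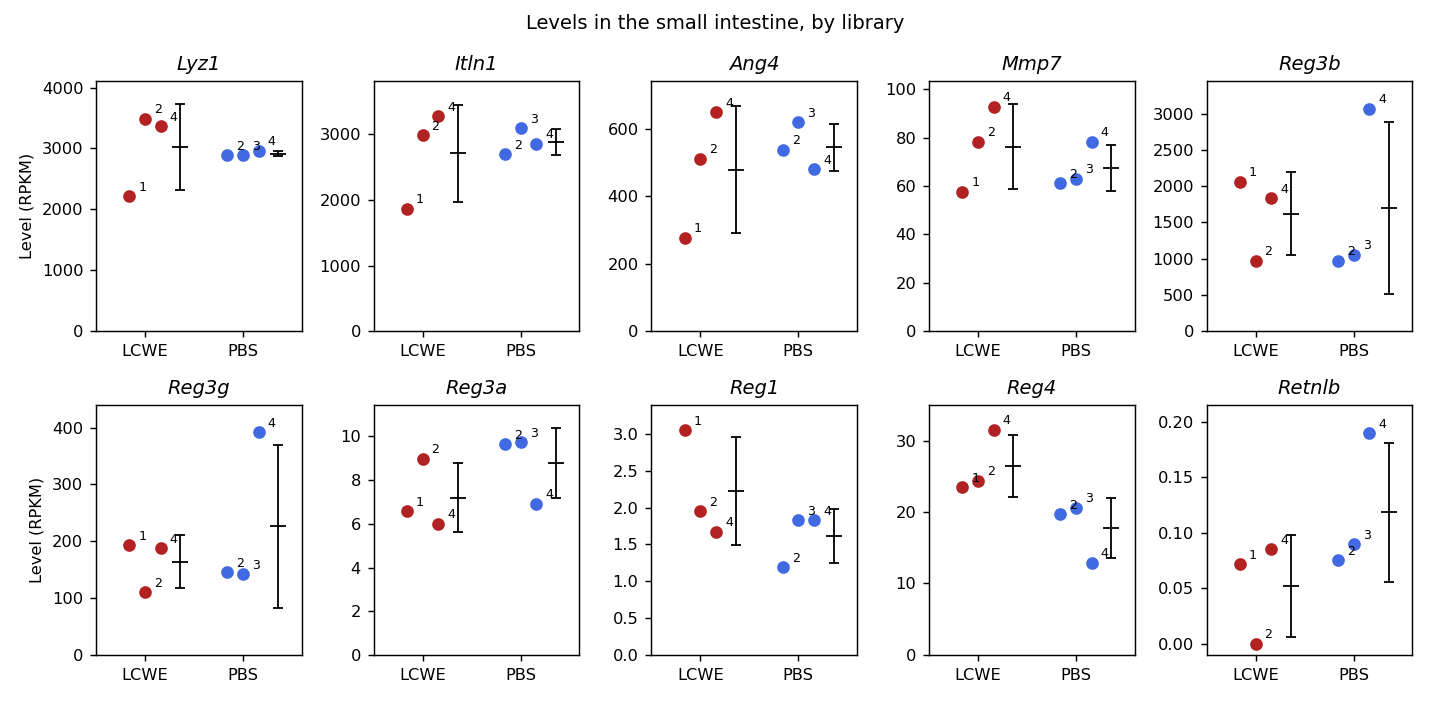
Level of each of the 10 genes in the small intestine, in RPKM on the y axis of its own panel, for LCWE and PBS on the x axis. Points are libraries with their replicate numbers, and the bar beside them is the mean ± SD (n = 3). The groups overlap in every panel except that of Reg4, where the 3 LCWE libraries (23.5 to 31.5) lie above the 3 PBS libraries (12.9 to 20.6).

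Among the Paneth cell products, Lyz1 (chr10:117287796-117292868, minus strand, mm10), which encodes the lysozyme that cleaves bacterial cell wall peptidoglycan, had 2212, 3487 and 3369 RPKM in LCWE intestines, against 2892, 2890 and 2960 RPKM in PBS intestines. The PBS libraries were nearly equal, and LCWE replicate 1 lay below and the other 2 LCWE libraries above all of them. The means were 3023 ± 704 and 2914 ± 39.7 RPKM (SD, n = 3 each), and the log2 fold change was 0.02 with a standard error of 0.21 (limma adjusted p = 0.961). Itln1 (chr1:171518122-171535294, minus strand), whose product intelectin-1 binds sugars on microbial surfaces, had 1867, 2982 and 3270 RPKM in LCWE intestines and 2691, 3094 and 2854 RPKM in PBS intestines. LCWE replicate 1 was again the lowest of the 6, and the groups overlapped. Its log2 fold change was -0.13 with a standard error of 0.24 (limma adjusted p = 0.797).

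Ang4 (chr14:51763878-51773590, minus strand) encodes a ribonuclease of the angiogenin family that kills bacteria. It had 277, 511 and 649 RPKM in LCWE intestines, against 538, 619 and 480 RPKM in PBS intestines. Both the highest and the lowest library were LCWE libraries, and the log2 fold change was -0.27 with a standard error of 0.31 (limma adjusted p = 0.679). Mmp7 (chr9:7692090-7699585, plus strand) had 57.7, 78.3 and 92.8 RPKM in LCWE intestines and 61.2, 63 and 78.3 RPKM in PBS intestines. These groups overlapped too, with a log2 fold change of 0.16 and an interval of -0.30 to 0.61 (limma adjusted p = 0.695). An antisense transcript, AV064505, shares 123 exon bases with Mmp7, and no source used here gives the strandedness, so reads of both cannot be told apart there.

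Lyz1, Itln1, Ang4 and Mmp7 were all lowest in LCWE replicate 1. So was the summed level of the 14 alpha defensin genes among the Paneth cell markers, at 35341, 50973 and 58266 RPKM in LCWE intestines and 40859, 49330 and 51167 RPKM in PBS intestines. Taken as a percent of that sum, Lyz1 was 6.26%, 6.84% and 5.78% in LCWE intestines and 7.08%, 5.86% and 5.78% in PBS intestines. The highest of the 6 values was 1.22 times the lowest for this percent, against 1.58 times for the level of Lyz1. The same spread was 1.25 times against 1.75 times for Itln1, 1.27 times against 1.61 times for Mmp7 and 1.69 times against 2.35 times for Ang4. Of 16 Paneth cell markers tested, 8 were higher and 8 lower in LCWE, against 69% higher among all genes tested, and 0 passed.

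Among the REG genes, Reg3b was the most abundant and, with Reg3g, the most variable over the 6 libraries. Reg3b (chr6:78370657-78373466, plus strand) had 2065, 974 and 1831 RPKM in LCWE intestines, against 972, 1058 and 3068 RPKM in PBS intestines. PBS replicate 4 was the highest of the 6, and LCWE replicate 2 and PBS replicates 2 and 3 were close together at the low end. The means were 1623 ± 574 and 1700 ± 1186 RPKM (SD, n = 3 each), and the log2 fold change was 0.07 with a 95% interval of -1.12 to 1.27 (limma adjusted p = 0.947). Without PBS replicate 4, the log2 fold change of Reg3b was 0.61, still short of the threshold (limma adjusted p = 0.55).

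Reg3g (chr6:78466269-78468872, minus strand), which encodes the lectin best known for killing Gram-positive bacteria, had 193, 110 and 188 RPKM in LCWE intestines and 145, 142 and 392 RPKM in PBS intestines. PBS replicate 4 was again the highest and LCWE replicate 2 the lowest. The log2 fold change was -0.34 with an interval of -1.37 to 0.69 (limma adjusted p = 0.708), and it was 0.15 without PBS replicate 4. The ratio of Reg3b to Reg3g RPKM was 10.7, 8.89 and 9.74 in LCWE intestines, against 6.73, 7.46 and 7.83 in PBS intestines. The ratio was singled out after its values were seen and was not tested: its groups did not overlap, and it spread 1.59-fold over the 6 libraries while the levels spread 3.16-fold for Reg3b and 3.58-fold for Reg3g. The transcripts of both genes were identical at 75% of aligned bases with a longest identical run of 35 bases, so reads in such runs could be split between them. The size of the ratio depends on the gene lengths used, as given with the order of levels.

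Reg3a (chr6:78380709-78383827, plus strand), another member of the REG3 family, had 6.59, 8.98 and 6.01 RPKM in LCWE intestines and 9.65, 9.73 and 6.92 RPKM in PBS intestines. Its 2 lowest libraries were LCWE libraries and its 2 highest were PBS libraries, but the groups overlapped, and the log2 fold change was -0.27 with an interval of -0.72 to 0.18 (limma adjusted p = 0.531). Reg1 (chr6:78422711-78428667, plus strand), best known as a pancreatic secretory protein, had 3.05, 1.95 and 1.67 RPKM in LCWE intestines, against 1.19, 1.83 and 1.83 RPKM in PBS intestines. The groups overlapped at a log2 fold change of 0.35 with an interval of -0.19 to 0.89 (limma adjusted p = 0.514). Exocrine pancreas markers, given because pancreatic tissue is rich in Reg1 RNA, summed to 1.32 to 1.92 RPKM in LCWE intestines and 1.45 to 2.12 RPKM in PBS intestines over the 13 of 18 in the table, and 2 of the 13 were at 0 in all 6 libraries.

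Reg4 (chr3:98222156-98236748, plus strand), expressed in mouse enteroendocrine and other secretory cells, had 23.5, 24.4 and 31.5 RPKM in LCWE intestines, against 19.7, 20.6 and 12.9 RPKM in PBS intestines. It was higher in all 3 LCWE libraries, the only 1 of the 9 whose groups did not overlap, whereas this held for 19.3% of all genes tested. The means were 26.5 ± 4.39 and 17.8 ± 4.21 RPKM (SD, n = 3 each), a 1.49-fold difference with a log2 fold change of 0.58 and an interval of 0.09 to 1.06. It did not pass after adjustment (limma adjusted p = 0.343), and its log2 fold change was 0.37 without PBS replicate 4. Goblet cell markers summed to 3165, 3068 and 2705 RPKM in LCWE intestines and 2328, 2829 and 2855 RPKM in PBS intestines, with 9 of 11 higher in LCWE, against 69% of all genes tested, and 0 passing.

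Retnlb (chr16:48816856-48818891, plus strand) was close to absent. It had 0.0715, 0 and 0.085 RPKM in LCWE intestines and 0.0754, 0.0899 and 0.19 RPKM in PBS intestines, from 4 and 8 reads summed over the groups. The pooled level had an exact Poisson 95% interval of 0.0144 to 0.135 RPKM in LCWE intestines and 0.0495 to 0.226 RPKM in PBS intestines, which covers counting error only. A difference was not detectable at this depth.

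**Figure D2:**
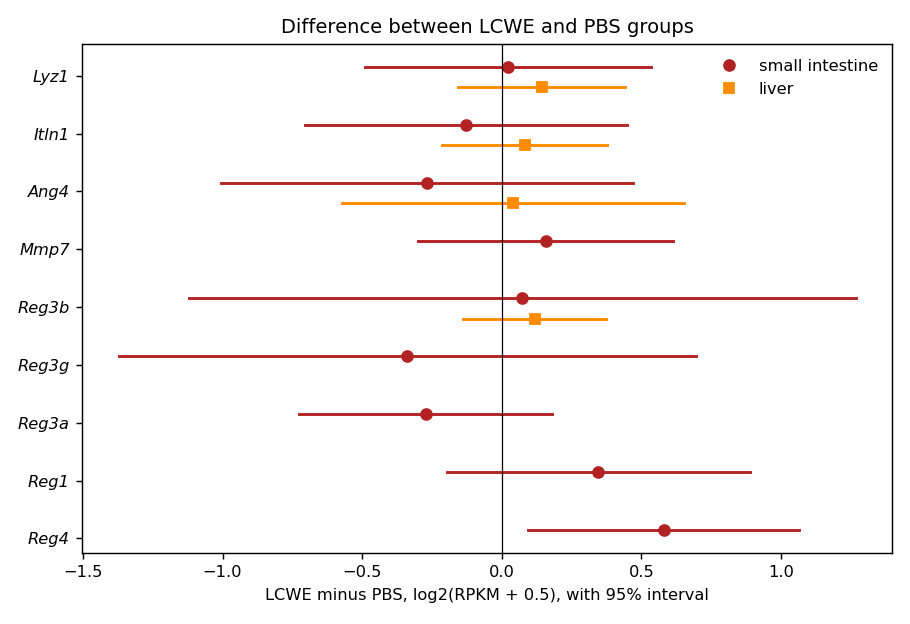
Difference between LCWE and PBS on the log2(RPKM + 0.5) scale (x axis) for each gene tested (y axis), with limma's 95% intervals, in small intestine (circles, 9 genes) and liver (squares, 4 genes). All intervals except that of Reg4 in the intestine (0.09 to 1.06) include 0, and no gene passed after adjustment.

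In both intestinal groups the order of mean levels was Lyz1, Itln1, Reg3b, Ang4, Reg3g, Mmp7, Reg4, Reg3a, Reg1 and Retnlb. The ranges of Lyz1 and Itln1 overlapped, as did those of Itln1 and Reg3b, and no other neighbours overlapped. The place of Reg3g depended on the gene length used. The table divides Reg3g by 2114 bases, whereas its longest coding transcript in GENCODE has 771 bases, and Reg3b by 1142 against 783 bases. Per base of coding transcript, Reg3g came to 448 ± 128 in LCWE intestines and 620 ± 394 in PBS intestines (RPKM, SD, n = 3 each), overlapping the ranges of Ang4 at 479 ± 188 and 546 ± 69.8. On the same lengths, the ratio of Reg3b to Reg3g came to 5.69, 4.73 and 5.18 in LCWE intestines and 3.58, 3.97 and 4.16 in PBS intestines, still without overlap.

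Marker genes of the position along the intestine were summed by list, and 0 of 4 proximal and 0 of 6 distal markers tested passed. The 7 proximal markers in the table summed to 54, 80.4 and 126 RPKM in LCWE intestines and 1675, 435 and 106 RPKM in PBS intestines. Most of this sum was Fabp1, a fatty acid binding protein gene, at 83.1 ± 36.8 RPKM in LCWE intestines and 692 ± 783 RPKM in PBS intestines (SD, n = 3 each). Of the 4 tested, 3 were lower in LCWE, namely Fabp1, Gata4 and Lct. Gata4 had 0.216, 1.68 and 0.28 RPKM in LCWE intestines, against 8.34, 5.31 and 3.79 RPKM in PBS intestines (limma adjusted p = 0.195). Lct had 0.186, 1.46 and 0.138 RPKM in LCWE intestines, against 86.5, 30.1 and 3.02 RPKM in PBS intestines (limma adjusted p = 0.242). The marker higher in LCWE, the iron exporter gene Slc40a1, had 2.25, 1.53 and 2.08 RPKM in LCWE intestines, against 0.402, 0.652 and 0.961 RPKM in PBS intestines (limma adjusted p = 0.206). Gata4, Lct and Slc40a1 did not overlap between groups, as held for 19.3% of all genes tested. The 6 distal markers, led by the ileal bile acid binding gene Fabp6, summed to 6368, 5629 and 4232 RPKM in LCWE intestines, against 443, 2391 and 3954 RPKM in PBS intestines. The distal sum was higher in all 3 LCWE libraries than in any PBS library. The proximal sums, mostly Fabp1, overlapped, whereas Gata4 and Lct were each lower in all 3 LCWE libraries than in any PBS library. Enterocyte markers summed to 14255, 8995 and 5463 RPKM in LCWE intestines and 31756, 24797 and 18525 RPKM in PBS intestines, without overlap. Most of this sum in PBS intestines was Apoa1, Fabp2 and Apoa4, and the list shares Fabp1 and Lct with the proximal list. Its log2 fold changes ran from -4.47 for Lct to 0.003 for Cdx2. Of 11 tested, 10 were lower in LCWE and 0 passed, whereas 69% of all genes tested were higher in LCWE. The part of these markers in the values of the 10 genes was not tested.

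The genes whose profiles were most like each member were ranked by the root mean square difference of centred log2(RPKM + 0.5) over the 6 intestinal libraries, among 12117 genes. Reg3g was nearest to the small RNA gene Rnu73b (0.164), Duoxa1 (0.167) and Duoxa2 (0.218). Duoxa1 and Duoxa2 encode maturation factors of the dual oxidases that release hydrogen peroxide at the epithelial surface. Duoxa2 had 16.7, 7.68 and 14.3 RPKM in LCWE intestines and 13.6, 16.3 and 33.1 RPKM in PBS intestines, with PBS replicate 4 highest and LCWE replicate 2 lowest, as for Reg3g. The difference between Reg3b and Reg3g was 0.23, smaller than that of Reg3b to any gene outside the 10, where Mir6973b (0.282), Hist1h4k (0.296) and Rps19-ps5 (0.307) came nearest. Reg3a stood at 0.862 from Reg3b and 0.766 from Reg3g.

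Itln1 was nearest to the alpha defensins Defa17 (0.0516) and Defa24 (0.0524) and to Sntb1 (0.0562), and Ang4 to Defa-ps16 (0.0864), Hist1h1d (0.099) and Defa26 (0.137). Lyz1 was nearest to Marcks (0.0444), Dnase1l3 (0.0454) and Msi1 (0.048), and Mmp7 to Adgrl1 (0.0318), Tmem55a (0.0465) and Jam2 (0.052). Reg4 was nearest to Ccdc109b (0.0763), Trat1 (0.105) and Mmachc (0.127). For Reg1 the nearest were Mir546 (0.0536), S100a6 (0.0791) and Ptprj (0.0874), and for Reg3a Mtfp1 (0.0542), Atpaf2 (0.0605) and Ispd (0.071). Genes that vary little come out near each other on this scale, so the numbers are a description of 6 libraries.

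**Figure D3:**
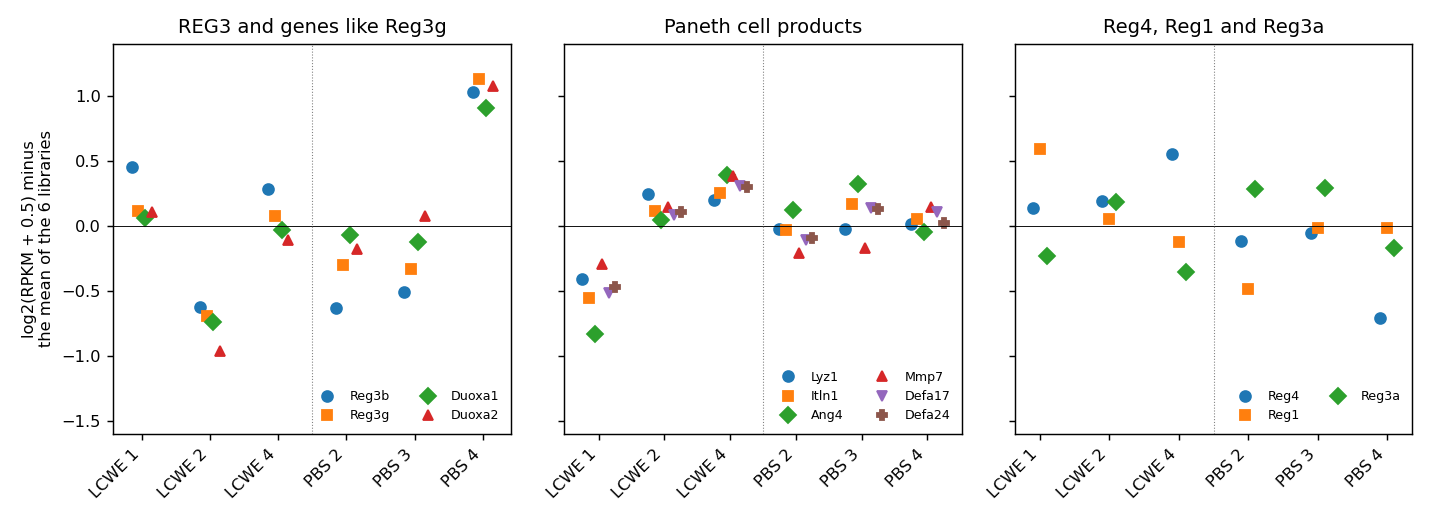
Profiles over the 6 intestinal libraries (x axis, LCWE left of the dotted line), as log2(RPKM + 0.5) minus the gene's mean (y axis), 1 point per gene and library. Reg3b, Reg3g, Duoxa1 and Duoxa2 share a high PBS replicate 4 and a low LCWE replicate 2, Lyz1, Itln1, Ang4, Mmp7, Defa17 and Defa24 share a low LCWE replicate 1, and Reg4, Reg1 and Reg3a follow neither pattern. Duoxa1, Duoxa2, Defa17 and Defa24 were picked from the genes nearest to Reg3g or Itln1 over these same libraries, so their likeness follows from that choice. The gene nearest to Reg3g, Rnu73b, and those nearest to Lyz1 and Mmp7 are not drawn.

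The 9 tested genes were far higher in the small intestine than in the liver. Between the PBS groups, 9 of 9 tested passed as higher in intestine, where 77.6% of 17253 genes passed in either direction and 60.7% as higher in intestine. Reg1, Reg3a, Reg3g, Reg4 and Mmp7 would not have passed the filter on their liver libraries. Being tested at all nearly fixed their direction, so their calls add little to the levels themselves. By quantile scaling the split of all calls between higher and lower was near even, at 49.7% higher, and the median log2 difference of all genes moved to -0.01, against 0.71 unscaled, and the 9 remained higher. Itln1 had 2691, 3094 and 2854 RPKM in PBS intestines, against 5.32, 5.48 and 5.21 RPKM in PBS livers, a 493-fold difference (log2 8.94, standard error 0.09, limma adjusted p = 2.62e-08). The differences on the log2(RPKM + 0.5) scale were 384-fold for Ang4, 378-fold for Lyz1, 310-fold for Reg3b, 205-fold for Reg3g, 98.3-fold for Mmp7, 32-fold for Reg4 and 17.6-fold for Reg3a, and limma's adjusted p was at most 1.8e-05. This scale understates the lower genes. Reg1 had no read in any liver. Set against a floor of 3 reads over a liver group, its intestinal mean was 58.3-fold higher in PBS mice and 78.7-fold higher in LCWE mice.

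The liver reads of these genes were few. Reg3b had 4.91, 4.19 and 4.84 RPKM in LCWE livers and 4.32, 4.06 and 4.34 RPKM in PBS livers. Lyz1 had 8.48, 8.77 and 6.92 RPKM in LCWE livers and 6.66, 7.24 and 7.78 RPKM in PBS livers. For the 5 members of at least 100 RPKM in intestine (Lyz1, Itln1, Reg3b, Ang4 and Reg3g), the liver mean was 0.2% to 0.286% of the intestinal mean in LCWE mice and 0.178% to 0.249% in PBS mice. For the 14 alpha defensins, which are Paneth cell products, the liver mean was 0.179% to 0.433% of the intestinal mean in LCWE mice and 0.207% to 0.579% in PBS mice. The other way round, Alb stood in intestine at 0.707% of its liver level in LCWE mice and 0.334% in PBS mice. Intestinal Alb had 51.6, 60.2 and 145 RPKM in LCWE and 52.9, 60.2 and 59.2 RPKM in PBS, so LCWE replicate 4 raised the LCWE percent. Liver Alb was 12080 ± 1453 RPKM in LCWE and 17180 ± 5559 RPKM in PBS (SD, n = 3 each). How the low levels in the other tissue arose was not tested.

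**Figure D4:**
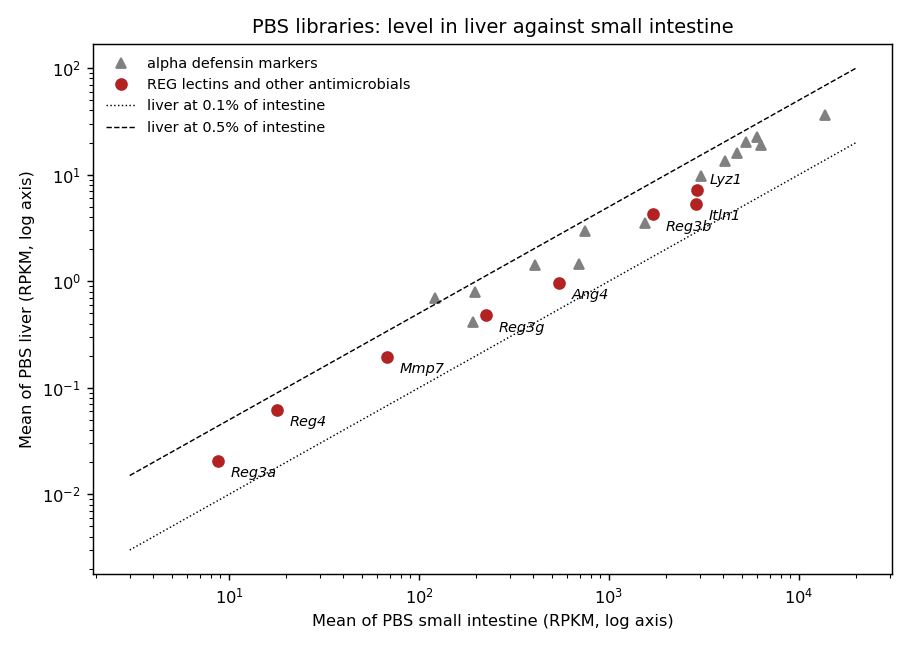
Mean RPKM of PBS livers (y axis) against mean RPKM of PBS small intestines (x axis), both on log axes, for the 8 members detected in liver (circles) and 14 alpha defensin markers (triangles), with lines at 0.1% and 0.5% of the intestinal level. The members lie between the lines, from Reg4 at 0.35% to Ang4 at 0.178%. Ang4 and Itln1 (0.185%) lie below all 14 alpha defensins, which run from 0.207% to 0.579%.

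In liver, 4 of the 10 passed the filter (Reg3b, Lyz1, Ang4 and Itln1), and 0 of these 4 differed between LCWE and PBS, where 582 of 14404 genes did (4.04%). Their log2 fold changes were 0.12 for Reg3b, 0.14 for Lyz1, 0.04 for Ang4 and 0.08 for Itln1, with a median of 0.10 against 0.06 over all genes, and limma's adjusted p was between 0.6 and 0.954. Mmp7, below the filter, had 0.296, 0.75 and 0.377 RPKM in LCWE livers and 0.336, 0.105 and 0.143 RPKM in PBS livers, with overlapping groups. Reg3g had 0.379 to 0.499 RPKM in LCWE livers and 0.433 to 0.528 RPKM in PBS livers. Reg4 had at most 0.174 RPKM and Reg3a at most 0.0639 RPKM in any liver, and Reg1 and Retnlb had no reads, which allows up to 0.0282 and 0.0367 RPKM in LCWE livers and 0.0277 and 0.036 RPKM in PBS livers.

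The difference of the LCWE effect between the tissues, intestine minus liver, was tested in 1 fit over the 4 groups. Of 9 members tested, 0 passed, where 137 of 18619 genes did (0.736%). Reg1, Reg3a, Reg3g, Reg4 and Mmp7 were below the filter in liver and entered this fit through the intestine. Their liver levels were too low for this fit to tell a tissue difference from the intestinal effect. For Reg1, without liver reads, the value equalled its intestinal log2 fold change (0.35). limma's adjusted p for the members was between 0.584 (Reg4) and 0.986 (Reg3b). The authors' deposited table of comparisons lists 220 genes for the intestine and 797 for the liver, and 0 of the 10 members in either. Of the 220, 0 had a false discovery rate below 0.05 there (lowest 0.469), against 625 of the 797. Both lists were small parts of the 34348 genes in the expression table, so few of any 10 genes would be listed.

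Close relatives of the members behaved in several ways. Lyz2, the lysozyme gene of macrophages and neutrophils, had 109, 111 and 157 RPKM in LCWE livers, against 40, 39 and 57 RPKM in PBS livers, and rose 2.76-fold (log2 1.46, standard error 0.20, limma adjusted p = 0.0168). All LCWE livers were above all PBS livers, and 7 of 9 macrophage markers, Lyz2 itself among them, rose in the same comparison, where 4.04% of all genes passed in either direction. With 1 library left out, the call was lost without LCWE replicate 1 (adjusted p = 0.0667), LCWE replicate 2 (0.0761) or PBS replicate 3 (0.0706). Lyz1 and Lyz2 transcripts were identical at 96% of aligned bases with a longest run of 118 bases, so liver reads of Lyz1 could be split with Lyz2. In the intestine, Lyz2 had 115, 152 and 161 RPKM in LCWE and 89.2, 120 and 113 RPKM in PBS (log2 fold change 0.40, limma adjusted p = 0.403). Lyz1 stood far above it there, at 2212 to 3487 RPKM, so part of these Lyz2 values could be Lyz1 reads.

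Reg3d had 2.03, 1.4 and 1.4 RPKM in LCWE intestines and 0.971, 0.958 and 2.11 RPKM in PBS intestines, and Reg2, 82% identical to Reg1 in its transcript, was listed at 0 in all 12 libraries. Ang, the angiogenin gene of liver, had 592, 556 and 297 RPKM in LCWE livers and 398, 330 and 364 RPKM in PBS livers, with overlapping groups. In the intestine, Ang had 49.7 to 54.5 RPKM in LCWE and 23.2 to 48.3 RPKM in PBS without passing (limma adjusted p = 0.449), and Rnase4, which shares its locus, had 34.8 to 38.3 RPKM in LCWE and 18.5 to 35.3 RPKM in PBS. Rnase1, a pancreatic-type ribonuclease, had 4.76, 6.57 and 4.44 RPKM in LCWE intestines, against 11.1, 14.4 and 9.05 RPKM in PBS intestines. Its groups did not overlap at a log2 fold change of -1.05, which did not pass within the intestine (limma adjusted p = 0.204) and passed in 1 fit over the 4 groups (limma adjusted p = 0.0197). Retnla, Retn and Retnlg reached at most 1.55, 1.48 and 0.862 RPKM in any library.

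Wider lists gave the setting of these genes. Of 30 other epithelial and myeloid antimicrobials, 20 were tested in the intestine and 0 passed. In LCWE, 12 were higher and 8 lower, against 69% higher among all genes tested. Saa1, the acute phase protein gene that the ileal epithelium also expresses, had 8.45, 3.14 and 8.45 RPKM in LCWE intestines and 0.93, 1.97 and 24.7 RPKM in PBS intestines, chosen after its values were seen. It was highest in PBS replicate 4, as were Reg3b and Reg3g. In liver, 6 of 12 tested rose and 0 fell, where 4.04% of all genes passed in either direction. The 6 were Saa2, Saa1, Saa3, Lcn2, S100a9 and S100a8, by 50.3-fold, 29.1-fold, 3.39-fold, 11.8-fold, 8.01-fold and 2.52-fold (limma adjusted p between 0.00327 and 0.0273). Of these 6 calls, those of Saa1 and Saa2 held in all 15 alternatives, and leaving out 1 library ended each of the other 4. Without LCWE replicate 2, limma's adjusted p was 0.0521 for Saa3, 0.0838 for Lcn2 and 0.077 for S100a9, and without PBS replicate 3 it was 0.0916 for S100a8. LCWE replicate 1 (Lcn2 and S100a9) and PBS replicates 3 and 4 (Lcn2, S100a9 and S100a8) also ended calls when left out. The call of S100a8 was also lost with a pseudocount of 0.1 (limma adjusted p = 0.054), with no filter (0.0623), under quantile scaling (0.0621) and in voom (0.0674).

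Of 30 genes of the IL-22, IL-17, IL-13 and STAT pathway, 21 were tested in the intestine and 0 passed. Of the 21, 12 were higher and 9 lower, against 69% higher among all genes tested. Il22, the cytokine that induces REG3 lectins in mice, had at most 0.113 RPKM in any intestinal library and no reads in liver, and its receptor gene Il22ra1 had 42.4, 31.1 and 25.9 RPKM in LCWE intestines and 36.6, 40 and 44.7 RPKM in PBS intestines. In liver, 3 of 18 tested rose and 0 fell, where 4.04% of all genes passed in either direction. Stat3, the factor downstream of IL-22 and IL-6, had 13.1, 14 and 14.6 RPKM in LCWE livers, against 9.69, 8.8 and 9.15 RPKM in PBS livers (1.48-fold, limma adjusted p = 0.0296). Ahr, a ligand-activated transcription factor, rose 1.78-fold (adjusted p = 0.0369), and Il10rb, which encodes the shared chain of the IL-10 and IL-22 receptors, rose 1.55-fold (limma adjusted p = 0.0456). These 3 calls were lost under quantile scaling, where limma's adjusted p was 0.0599 for Stat3, 0.0898 for Ahr and 0.126 for Il10rb, under median-ratio scaling, where it was 0.0799, 0.0667 and 0.0846, and without LCWE replicate 1, where it was 0.117, 0.167 and 0.142. With no filter, those of Ahr (0.0743) and Il10rb (0.0923) were lost. Leaving out LCWE replicate 2, PBS replicate 3 or PBS replicate 4 also ended all 3 calls, and LCWE replicate 4 those of Stat3 and Il10rb, with an adjusted p of up to 0.194 when 1 library was left out.

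Of 13 genes for bacterial sensing, 10 were tested in the intestine, with 7 higher, and 7 in liver, with 5 higher, against 69% and 60.2% of all genes, and 0 passed in either tissue. All 13 factors of the secretory lineage were tested in the intestine, 10 were higher in LCWE, against 69% of all genes, and 0 passed, with a median log2 fold change of 0.27 against 0.11 over all genes. Atoh1, which commits intestinal cells to the secretory lineage, had 6.65, 7.72 and 7.78 RPKM in LCWE intestines and 3.47, 4.83 and 5.32 RPKM in PBS intestines. Its groups did not overlap, and it did not pass (limma adjusted p = 0.238); it was chosen after its values were seen.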

How the data were processed

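The deposited table gives RPKM per gene and library. Per the submitters' processing notes, the build was mm10 and the tools were Subread 1.5.1, featureCounts, Trimmomatic 0.36 and edgeR 3.12.1, with no roles stated. The aligner was not named. Per the labels' protocols, TRIzol extraction was followed by DNase I digestion. Columns of 12 libraries, of 16 in the table, carried a name matching a sample; the other 4 were not used. Whole reads were recovered from RPKM and gene length for 100% of non-zero values (tolerance 0.001). A deposited table of the authors' comparisons (p-values, false discovery rates and log2 fold changes) served only to look up the members and to count its genes.

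limma 3.58.1 (R 4.3.3) was run on log2(RPKM + 0.5) for genes that reached 0.5 RPKM in 3 or more libraries of the fit, with trended eBayes moderation. Tests were two-sided, Benjamini-Hochberg adjustment covered all genes tested, and calls needed an adjusted p below 0.05. The tissues had separate fits, and the tissue difference of the LCWE effect in 1 fit over the 4 groups. With 3 libraries a group, the smallest two-sided p of an exact permutation test is 0.1. On simulated data the procedure recovered most 4-fold changes, fewer 2-fold changes, and made somewhat more false calls than its threshold names. Sequence identity was computed with Biopython 1.88 over longest coding transcripts of GENCODE M21.

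Named genes are the members, their relatives, up to 4 genes of each list that passed in a tissue and the 3 genes most like each member. The others (Saa1 in intestine, Atoh1, Alb, Fabp1, Fabp2, Fabp6, Apoa1, Apoa4, Cdx2, Gata4, Lct, Slc40a1, Il22 and Il22ra1) lie outside this rule and were chosen with their values known. Macrophage and T cell list members that passed are given as counts only or not at all. The members and lists were chosen with earlier results of these data known. The alternatives were other pseudocounts, filters and scalings, voom on recovered reads, a joint fit of the 4 groups, a replicate block, and dropping libraries singly.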

Additional observations from a re-analysis of the deposited data

How the results depend on the processing

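No member was called for LCWE against PBS in either tissue, or for the tissue difference, under any alternative, and between PBS tissues each member stayed higher in intestine wherever it passed the filter. Reg1, Reg3a, Reg3g, Reg4 and Mmp7 passed the main filter only through the intestine. For them, staying higher there was nearly fixed by the filter, except in the fit with no filter. The count of all intestinal genes called, 0, became 243 (94 rose, 149 fell) in 1 fit over the 4 groups and 0 to 70 when 1 library was left out, the 70 arising without LCWE replicate 1, and 4 when replicate 2 of LCWE was dropped. The liver count of 582 became 335 with no filter and 987 in 1 fit over the 4 groups, and 55 (without LCWE replicate 2) to 943 (without PBS replicate 2) with 1 library left out. Its share of higher calls was 84%, against 73.5% under quantile and 74% under median-ratio scaling. The tissue difference count of 137 became 206 under median-ratio scaling and 20 (without liver PBS replicate 3) to 461 (without intestinal LCWE replicate 1) with 1 library left out. Between PBS tissues, 51.9% of calls were higher in intestine under median-ratio scaling, against 78.2%.

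Same-numbered libraries did not deviate together (correlations of -0.0832 to 0.107), and the numbers were not taken as pairing the samples, although whether same-numbered tissues came from 1 animal is not stated. Within a tissue, LCWE replicate 1 and PBS replicate 3 had no same-numbered partner, so the replicate block took the LCWE effect from replicates 2 and 4 alone. Lost calls and sign changes with the block within a tissue therefore also reflect fewer libraries. For the tissue difference and between PBS tissues, the block instead paired intestine and liver of the same treatment and number. There every library had a partner, and the calls rest on that pairing. With the replicate block, liver calls were 24, tissue difference calls 12, intestinal calls 0 and calls between PBS tissues 13164. The intestinal log2 fold changes of Reg3b (-0.37), Ang4 (0.18), Itln1 (0.17), Reg3d (-0.0456) and Retnlg (-0.29) changed sign. Named liver calls not made with the block were those of Lcn2 (adjusted p = 0.0703), Saa3 (0.131), Lyz2 (0.137), S100a8 (0.151), Ahr (0.373), Il10rb (0.518) and Stat3 (0.532).

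Other sign changes concerned small differences that did not pass. In the intestine these were Itln1 (0.021) and Retnlg (-0.0234) under quantile scaling, and Reg3b (-0.0442), Lyz1 (-0.0942) and Retnlg (-0.0295) under median-ratio scaling, which moved the median of all genes to 0.01, against 0.11. In liver they were Ang4 (-0.10) and Itln1 (-0.0147) under quantile scaling and Ang4 (-0.0196) and Itln1 (-0.0153) under median-ratio scaling. For the tissue difference they were Reg4 with a pseudocount of 0.1 (-0.026) and in voom (-0.96), and Reg3b (0.0497), Lyz1 (0.0975) and Itln1 (0.0394) under quantile scaling. Leaving out 1 library gave intestinal log2 fold changes of -0.22 to 0.61 for Reg3b, -0.59 to 0.15 for Reg3g, -0.094 to 0.23 for Lyz1, -0.53 to 0.0848 for Ang4, -0.28 to 0.12 for Itln1 and -0.14 to 0.21 for Retnlg. In liver it gave -0.25 to 0.21 for Ang4 and -0.00923 to 0.18 for Itln1. For the tissue difference it gave -0.34 to 0.49 for Reg3b, -0.55 to 0.18 for Reg3g, -0.24 to 0.0914 for Lyz1, -0.57 to 0.0451 for Ang4 and -0.37 to 0.0371 for Itln1. The cause of these moves was not tested. Depth limited Retnlb in both tissues and Reg1, Reg3a and Reg4 in liver.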
